A study of Mus musculus with 16 samples.

Results

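The mRNA deadenylation and decay machinery is taken here as 64 genes of the 20436 listed in the deposited gene tables. The rule that takes them was chosen with earlier results of these data known, but reads gene symbols and no measured value. They are the Cnot subunits of the CCR4-NOT complex, Pan2, Pan3 and Parn, the adaptors (Tob, Btg and Pum2 among them), the decapping genes (Dcp1a, Dcp1b, Dcp2, Dcps, Edc3, Edc4, Patl1 and Ddx6), the Lsm genes, Xrn1 and Xrn2, the Exosc genes and the Upf and Smg genes. Counts were high enough to test 63 of the 64, in RNA, in footprints and in both together. The other member was Btg4. Cnot9 is listed under its older symbol Rqcd1, which the rule on symbols does not take.

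Most cytoplasmic mRNAs are degraded after their poly(A) tail is shortened by the PAN2-PAN3 and CCR4-NOT deadenylases. The shortened tail lets the Lsm1-7 ring and its partners bring in the decapping enzyme Dcp2, after which Xrn1 digests the body of the mRNA from the cap end, while the exosome digests from the tail end. Nonsense-mediated decay, run by the Upf and Smg proteins, removes mRNAs on which translation ends too early. FMRP and CPEB1 are RNA-binding proteins that act on the translation and stability of neuronal mRNAs, and CPEB1 is known to hold the deadenylase PARN on its targets in some cells.

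Cerebral cortex was taken from mice aged 28 to 35 days, on a strain background labelled FVB.129P2-/Pde6b+ Tyrc-ch //AntJ. The 4 genotypes were wild type (WT), mice lacking Fmr1, which codes for FMRP (Fmr1 KO), mice lacking Cpeb1 (Cpeb1 KO) and mice lacking both genes (double KO). The labels give neither the sex of the animals nor the construction of the alleles, and name no Cre line. Cortex was homogenised in buffer with the translation inhibitors cycloheximide and harringtonine, and the low-speed supernatant, a cytoplasmic lysate, served for RNA-seq and for ribosome profiling, which sequences the mRNA fragments that ribosomes protect (footprints). Each genotype had 2 libraries per assay, 16 in all. The labels do not say that libraries of a genotype came from separate animals, so p-values measure only the spread between these libraries, which may be technical.

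Total counts ran from 5423919 to 10246479 in the 8 RNA libraries and from 16239479 to 24973462 in the 8 footprint libraries. Levels are given as library-scaled counts (CPM) per kilobase of the counted coding feature, which allows genes of different length to be compared. Fmr1 footprints were 54.4 and 55.3 CPM per kb in WT, 61.2 and 53.9 in the Cpeb1 KO, 4.94 and 3.34 in the Fmr1 KO and 3.03 and 3.14 in the double KO. Cpeb1 footprints were 21.97 and 20.7 in WT, 21.3 and 22.8 in the Fmr1 KO, 4.53 and 4.61 in the Cpeb1 KO and 4.79 and 4.77 in the double KO, so both genes followed the labels. The 7 neuronal markers summed to 4505 to 5072 CPM in RNA and the 5 astrocyte markers to 370.7 to 532.9 CPM. The 3 ependymal and choroid plexus markers were uneven. Their RNA sum ran from 11.45 CPM (double KO library 2) to 226.2 (WT library 2), with 55.82 in WT library 1. In footprints it ran from 18.09 to 141.6 CPM. In bulk tissue, fewer cells of a type and less RNA per cell cannot be told apart.

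In WT cortex the decay genes were expressed at levels near and above those of a typical expressed gene. The median member had an RNA level of 27.6 CPM per kb, against 21.2 over all 13287 genes tested, and a footprint level of 29.6 CPM per kb, against 15.5 over the 13774 genes tested in footprints. By RNA level 37 of 63 members lay above the median tested gene, and by footprint level 48 of 63 did. The ratio of the footprint level to the RNA level, a measure of how many ribosomes a unit of mRNA carries, had a median of 1.18 over members and 0.905 over all genes. Across the 63 members the RNA and footprint levels in WT were related with a Spearman rho of 0.642. Among these members the ratio fell with coding length, with a rho of -0.515, and no value over all genes is set beside it. Each of these relations is a description. For 52 members the footprint level is divided by a length 57 nt shorter than that of the RNA level. This is a larger share of a short gene, such as Lsm6 (183 against 240 nt). Its part in the relation with length was not tested.

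**Figure D1:**
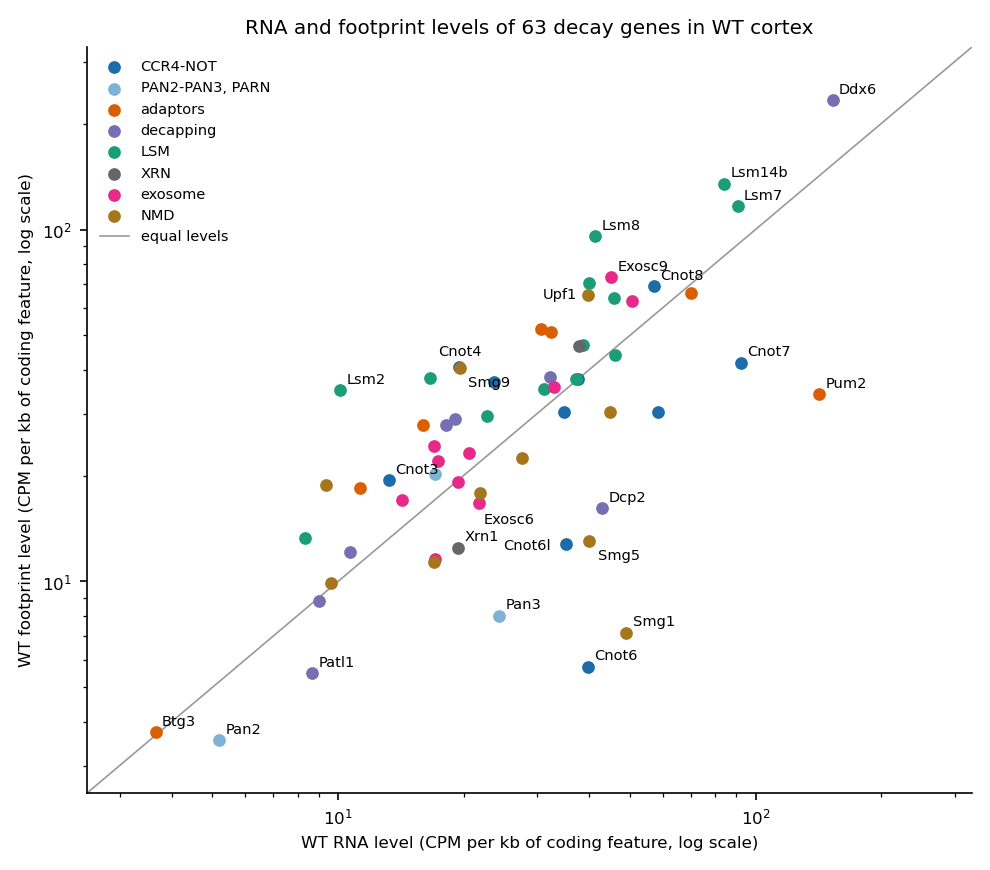
Mean WT footprint level against mean WT RNA level of the 63 tested members, in CPM per kb of coding feature on log axes, each point being a gene and each colour a role, with NMD for nonsense-mediated decay. Points on the line have equal levels. Ddx6 is highest on both axes, and Cnot6, Smg1 and Pum2 lie furthest below the line.

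Within the CCR4-NOT complex, the main cytoplasmic deadenylase, WT RNA levels spanned a 6.98-fold range over the 10 subunits measured. Cnot7, a catalytic subunit of the CAF1 type, was highest, with 86.9 and 97.5 CPM per kb in the 2 WT libraries. Cnot1, the scaffold on which the complex is built, followed with 61.4 and 55.3. Cnot3, which with Cnot2 forms the NOT module that many RNA-binding proteins contact, was lowest, with 12.7 and 13.8. Footprints gave another order, and the range widened to 12.1-fold. Cnot8 was highest, with 67.5 and 70.8 CPM per kb, and Cnot6, a catalytic subunit of the CCR4 type, was lowest with 5.42 and 6.03. The footprint to RNA ratio of Cnot6 was 0.151 and 0.139 in the WT libraries, and 1.6% of all genes had a lower mean. At the other end stood Cnot4, a ubiquitin ligase loosely tied to the complex, with ratios of 2.18 and 2.03.

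The other deadenylases spanned a 4.68-fold range in RNA. Pan2, the catalytic subunit of PAN2-PAN3, had RNA levels of 5.29 and 5.10 CPM per kb in WT, and Pan3, which binds it to poly(A)-binding protein, had 25.0 and 23.6. In footprints they were closer, at 3.49 and 3.58 for Pan2 and 7.97 and 8.02 for Pan3, and the ratio was 0.329 for Pan3 and 0.681 for Pan2. Parn, a deadenylase with a preference for capped RNA, had RNA levels of 17.8 and 16.3 and footprint levels of 19.6 and 20.6.

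Among the adaptors that bring CCR4-NOT to its targets, Pum2, which binds Pumilio elements, had the highest WT RNA level, 138 and 146 CPM per kb. Btg3 was the lowest, with 3.97 and 3.34. Btg2, an immediate-early antiproliferative gene, varied most between libraries, from 8.75 to 36.0 CPM per kb in RNA, a coefficient of variation of 45.2% over 8 libraries. Its 2 WT libraries were at 23.2 and 8.75. Those values rest on 110 and 23 counts. Its footprints were steadier, from 19.7 to 30.8. Over the 63 members the median coefficient of variation was 12.6% in RNA and 8.27% in footprints.

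In the decapping group Ddx6, the DEAD-box helicase that links repression to decapping, was the most abundant member of all. Its RNA level was 155 and 152 CPM per kb in WT and its footprint level was 249 and 218. Dcp2, the decapping enzyme itself, had RNA levels of 44.1 and 41.8 but footprint levels of only 15.9 and 16.4, a ratio of 0.377. The scaffold Patl1 was lowest in the group, with 7.06 and 10.3 in RNA. Xrn1, the exonuclease of the cytoplasm, had RNA levels of 22.2 and 16.6 and its nuclear relative Xrn2 had 40.3 and 35.2.

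The Lsm genes share the Sm-like fold, and most of them code for small subunits of rings that bind RNA. The lowest mean WT ratio among the 13 was 0.953, that of Lsm14a. Lsm7 and Lsm14b, the latter a partner of Ddx6, had the highest RNA levels, with 80.9 and 100.4 CPM per kb for Lsm7 and 83.9 and 84.2 for Lsm14b. Lsm10, part of the histone-processing U7 particle, was lowest with 8.75 and 7.89. Lsm2 had the highest ratio of all members, a mean of 3.64 that exceeded 99.2% of genes, from RNA levels of 6.99 and 13.2 and footprint levels of 33.7 and 36.4. Its RNA libraries differed from each other, and its ratio was 4.82 in the first and 2.75 in the second. Among Lsm1 to Lsm7, the subunits of the cytoplasmic ring, RNA levels spanned 8.97-fold and footprint levels 3.32-fold. For Exosc1 to Exosc9, the ring and cap of the exosome, it was the reverse: RNA levels spanned 3.56-fold and footprint levels 6.34-fold. Exosc4 had the highest RNA level there, 48.2 and 53.0, Exosc9 followed with 46.7 and 43.7, and Exosc8 had the lowest, 15.8 and 12.6.

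Nonsense-mediated decay genes spanned a 14.1-fold range in the ratio. Smg1, the kinase that phosphorylates Upf1, had RNA levels of 51.3 and 46.9 CPM per kb and footprint levels of 7.50 and 6.82, a ratio of 0.146 in each WT library. Smg5, an adaptor that binds phosphorylated Upf1, was similar, with 40.7 and 39.3 in RNA and 13.6 and 12.5 in footprints. Upf3b had the lowest RNA level, with 11.2 and 7.52. Smg9, which restrains the Smg1 kinase, had a ratio of 2.06. Upf1, the central helicase, had the highest footprint level of the group, 67.4 and 63.2. In all, 8 of 63 members had a WT ratio under 0.5 and 6 had a ratio above 2, and 5 and 6 lay in the lowest and the highest 10% of all genes.

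Several members are paralog pairs, and the pairs differed in how the RNA and footprint levels were divided. For each of 8 pairs the log2 difference was taken in 8 RNA libraries, in 8 footprint libraries and in the 8 ratios of same-numbered libraries of a genotype, and its mean was tested against 0 with a two-sided exact permutation test of signs. All 4 genotypes enter, and whether same-numbered RNA and footprint libraries share a cortex is not stated. This exact permutation test cannot give less than p = 0.00781, which is an adjusted p of 0.00938 over the 24 differences. That smallest value was reached by 20 of them. Each of those had the same sign in 8 of 8. Reads common to close paralogs were shared out by the authors' counting, which could move part of such a difference.

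Cnot7 and Cnot8, paralogous catalytic subunits, exchanged places. Cnot7 RNA was 1.51-fold above Cnot8 (log2 difference 0.60 ± 0.15, SD, n = 8), whereas its footprints were 1.69-fold below (-0.76 ± 0.16, SD, n = 8). The ratio of Cnot7 was thus 2.56-fold below that of Cnot8, with exact permutation p = 0.00781 for each of these.

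Cnot6 and Cnot6l had nearly equal RNA levels, Cnot6 being 1.12-fold higher, but footprints of Cnot6 were 2.30-fold lower. Upf3a RNA was 3.17-fold above that of its X-linked paralog Upf3b, and the footprints 1.26-fold above. Lsm14b exceeded Lsm14a 1.72-fold in RNA and 2.99-fold in footprints. For Tob1 and Tob2, antiproliferative adaptors, Tob1 was higher by 2.59-fold in RNA and by 2.74-fold in footprints, and the ratios differed by 0.09 ± 0.24 (log2, SD, n = 8, exact permutation p = 0.367). Btg1 was 1.78-fold above Btg2 in footprints. Their ratios differed by 0.04 ± 0.74 (log2, SD, n = 8, exact permutation p = 0.898). Dcp1a exceeded Dcp1b 1.49-fold in footprints, while in RNA the difference of 0.17 ± 0.25 did not pass (log2, SD, n = 8, exact permutation p = 0.0703, adjusted 0.0767).

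**Figure D2:**
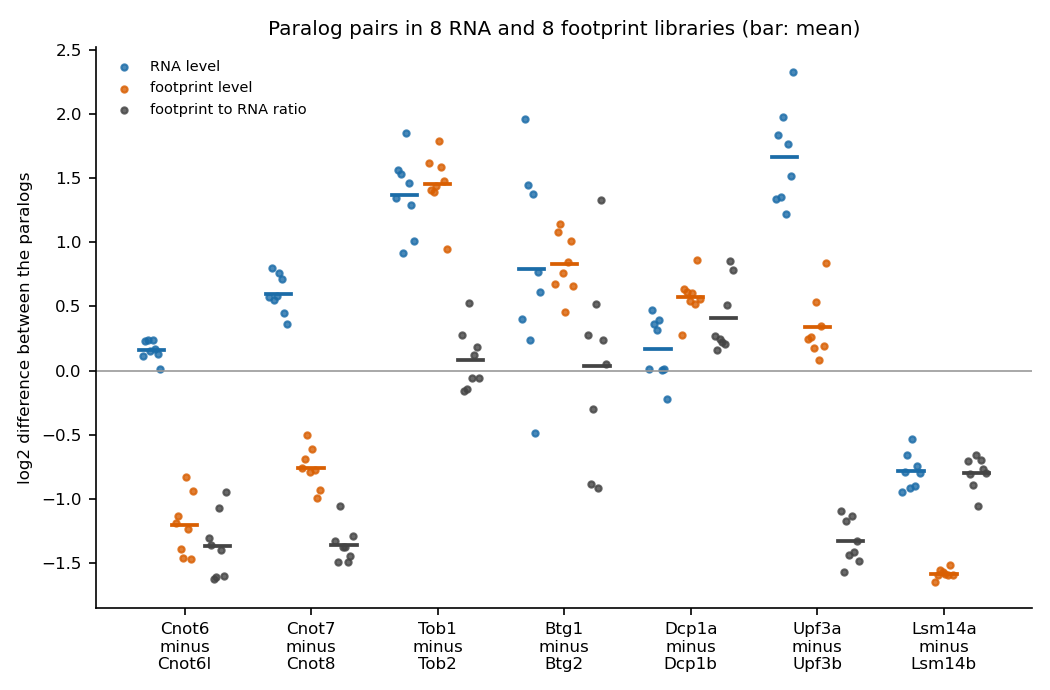
Log2 difference between the members of 7 paralog pairs in RNA level, footprint level and footprint to RNA ratio, each point being a library (or a same-numbered pair of libraries for the ratio) and each bar the mean of 8. Cnot7 minus Cnot8 lies on opposite sides of 0 in RNA and in footprints, and the Btg1 minus Btg2 RNA points are the most scattered.

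The next comparisons asked whether loss of FMRP, of CPEB1 or of both changed the decay genes. Against WT no member was called in RNA. edgeR's quasi-likelihood test called 0 of 63 at an adjusted p under 0.05 in each of the 3 KOs. Over all genes 0.00753%, 0% and 0.00753% were called in the Fmr1, Cpeb1 and double KO. DESeq2 also called 0 members in each. At an unadjusted p under 0.05, edgeR took 2, 4 and 2 members, against 8.09%, 11% and 4.23% of all genes, and DESeq2 took 1 in each. In the Fmr1 KO 0 of them were higher and 2 lower, against 3.12% and 4.97% of all genes. For the Cpeb1 KO 3 were higher and 1 lower (3.88% and 7.07%), and for the double KO 0 were higher and 2 lower (1.65% and 2.58%). These 3 comparisons share the WT libraries. The median member moved by -0.01 (log2) in the Fmr1 KO, 0.00 in the Cpeb1 KO and -0.05 in the double KO, where all genes moved by 0.02, 0.02 and 0.00. The median standard error of a member in the Fmr1 KO against WT was 0.164 in RNA and 0.103 in footprints (log2). A small change could thus not be seen, and in RNA a larger one could be missed. Cpeb1 RNA itself changed by -1.12 ± 0.18 (log2, SE) in the Cpeb1 KO and -1.16 ± 0.18 in the double KO. edgeR called neither, with adjusted p of 0.225 and 0.376.

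Members with the lowest p values in RNA are given as values only. In the Fmr1 KO these were Lsm11 (log2 change 0.36 ± 0.18, SE), Exosc8 (0.31 ± 0.18) and Cnot2 (0.19 ± 0.12) on the higher side and Pan3 (-0.32 ± 0.14) and Tob1 (-0.35 ± 0.16) on the lower. For the Cpeb1 KO they were Lsm5 (0.65 ± 0.26), Lsm11 (0.43 ± 0.18) and Exosc8 (0.41 ± 0.18), and Cnot3 (-0.56 ± 0.21), Patl1 (-0.39 ± 0.21) and Pan3 (-0.25 ± 0.14). Lsm5, a small ring subunit, rested on 20 to 69 counts per RNA library. In the double KO they were Exosc6 (0.39 ± 0.21), Lsm6 (0.36 ± 0.23) and Lsm11 (0.26 ± 0.18), and Cnot7 (-0.33 ± 0.12), Exosc2 (-0.43 ± 0.18) and Ddx6 (-0.20 ± 0.11).

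**Figure D3:**
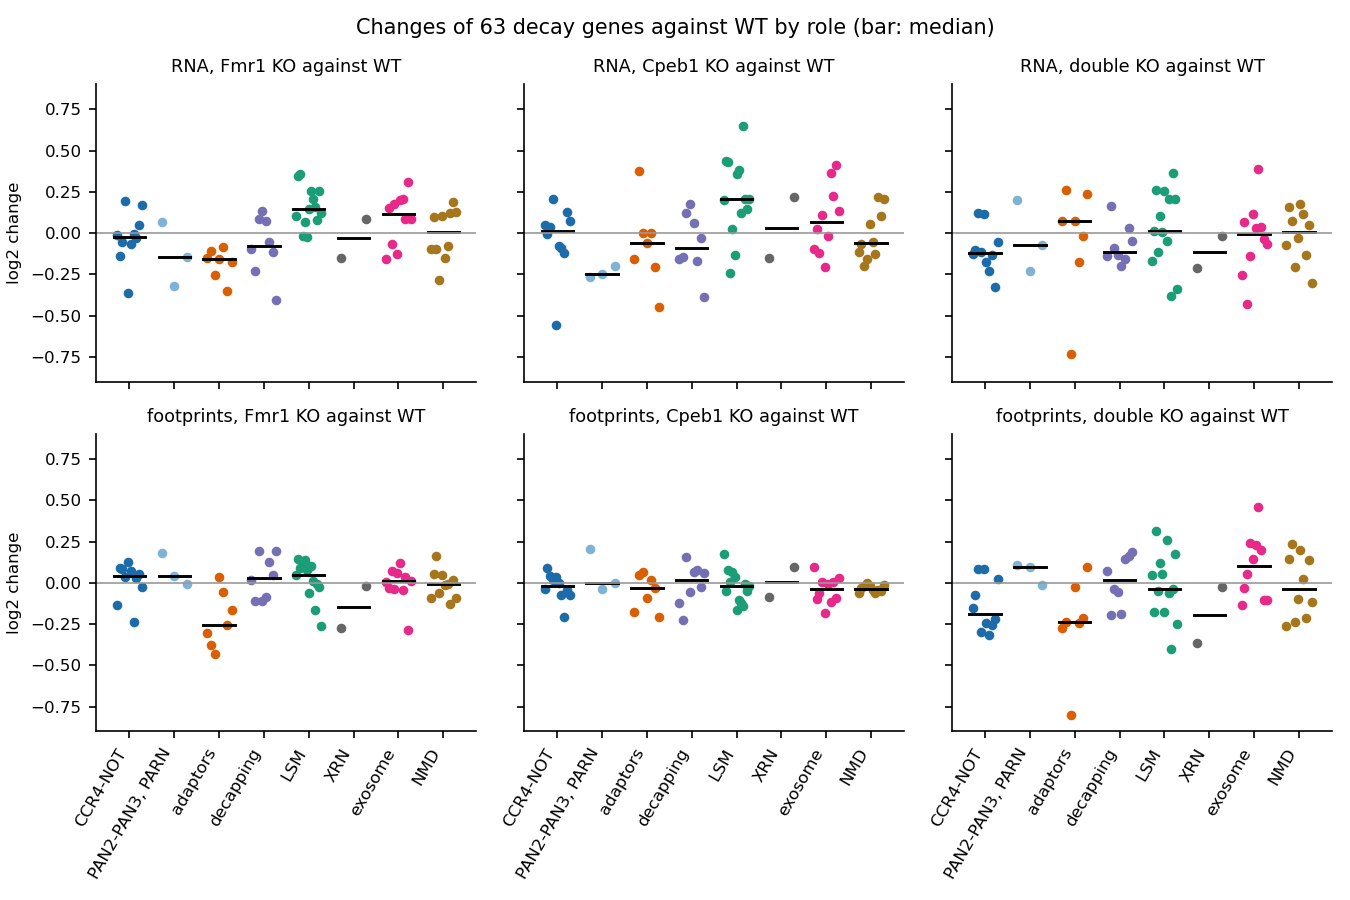
Log2 change of each of the 63 members against WT, by role, in RNA (upper row) and footprints (lower row) for the Fmr1, Cpeb1 and double KO; each point is a gene and each bar the median of its role. RNA points of the LSM group lie mostly above 0 in both single KOs, and footprint points of the adaptor group mostly below 0 in the Fmr1 and double KOs.

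Footprints gave the same counts. edgeR called 0 of 63 members against WT in the Fmr1, Cpeb1 and double KO, where 0.0581%, 0.0799% and 2.65% of all genes were called, and DESeq2 called 0 in each. By unadjusted p under 0.05 edgeR took 6 members in the Fmr1 KO, all lower, 0 in the Cpeb1 KO and 16 in the double KO (3 higher and 13 lower). Over all genes the shares were 5.09% (2.4% higher and 2.69% lower), 3.88% (2.42% and 1.45%) and 21% (10.5% and 10.5%). DESeq2 took 2, 0 and 10. The count in the double KO turned on the WT libraries: without WT footprint library 1 it was 6 called members (Cnot2, Cnot4, Cnot7, Exosc6, Lsm7 and Smg9), and without WT footprint library 2 it was 1 (Xrn1). These are 9.52% and 1.59% of members, near the 9.44% and 1.51% of all genes called in the same fits. In the full fit the 3 members with the lowest p on each side in the double KO were Exosc6 (log2 change 0.46 ± 0.14, SE), Lsm11 (0.31 ± 0.12) and Smg6 (0.24 ± 0.09), and Xrn1 (-0.37 ± 0.11), Cnot2 (-0.30 ± 0.09) and Smg1 (-0.26 ± 0.08). In the Cpeb1 KO they were Pan2 (0.21 ± 0.12), Dcp2 (0.16 ± 0.10) and Lsm1 (0.17 ± 0.12), and Dcp1b (-0.23 ± 0.13), Exosc4 (-0.18 ± 0.10) and Cnot6l (-0.21 ± 0.12). The footprint level of Parn, the deadenylase that CPEB1 is known to bind, was 19.6 and 20.6 CPM per kb in WT and 19.5 and 20.7 in the Cpeb1 KO, and the values overlapped.

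Among the 8 roles, the adaptors had the lowest median in the footprints of the Fmr1 KO. Of 7 tested, 6 were lower, with a median log2 change of -0.25 against 0.00 over all genes, and 0 were called. Btg1 footprints were 47.4 and 54.8 CPM per kb in WT, 43.6 and 38.9 in the Fmr1 KO, 42.2 and 48.2 in the Cpeb1 KO and 42.7 and 41.6 in the double KO. Both libraries of the Fmr1 and double KOs lay below both of WT. The Btg1 change in the Fmr1 KO was -0.31 ± 0.12 (log2, SE), with an edgeR adjusted p of 0.888. Tob1 footprints were 49.6 and 54.7 in WT, 38.9 and 48.7 in the Fmr1 KO, 52.2 and 49.5 in the Cpeb1 KO and 43.2 and 46.9 in the double KO. Here too the Fmr1 and double KO libraries lay below WT, by -0.25 ± 0.10 (log2, SE) in the Fmr1 KO, with an edgeR adjusted p of 0.888. In RNA the fitted changes of the 7 adaptors in the Fmr1 KO were all below 0, from -0.35 to -0.09, and 0 were called. For Btg2 the sign goes against the mean level (15.98 CPM per kb in WT and 17.05 in the Fmr1 KO), from libraries that overlap. For the double KO 4 adaptors were higher and 3 lower. Xrn1 footprints, not among the adaptors, were 13.2 and 11.7 in WT, 9.98 and 10.8 in the Fmr1 KO, 10.99 and 12.6 in the Cpeb1 KO and 8.93 and 10.5 in the double KO. Its change of -0.27 ± 0.10 in the Fmr1 KO (log2, SE) had an edgeR adjusted p of 0.888. Both libraries of each genotype without Fmr1 lay below those with it. For this and for the Btg1 and Tob1 separations, the share of all genes that separate in the same way was not computed. Lsm8, a subunit of the nuclear ring, had -0.26 ± 0.10 in the Fmr1 KO, and on the higher side the lowest p values were those of Dcp2 (0.19 ± 0.10), Smg6 (0.16 ± 0.09) and Lsm14a (0.14 ± 0.09). Oligodendrocyte markers moved with the Fmr1 KO in footprints. Their sum over 5 markers, none of them at 0, was 3350 and 3517 CPM in WT and 2882 and 2854 CPM in the Fmr1 KO, and their part in these values was not tested.

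Averaged over both Cpeb1 states (the Fmr1 main effect), edgeR called 0 of 63 members in footprints, where 0.922% of all genes were called. Unadjusted, 18 members had p under 0.05 (5 higher and 13 lower), against 19.1% of all genes (9.57% higher and 9.54% lower). Of the 18, 5 were among the 7 adaptors. The adaptors were singled out above from the Fmr1 KO and WT footprints. Those libraries enter this average, so that count is not separate support. DESeq2 called 1, Xrn1, where it called 2.35% of all genes, and took 11 at an unadjusted p under 0.05. The edgeR change of Xrn1 was -0.28 ± 0.07 (log2, SE, adjusted p = 0.0846), followed by Lsm8 (-0.24 ± 0.07) and Btg3 (-0.65 ± 0.20), and on the higher side by Smg6 (0.21 ± 0.06), the endonuclease of nonsense-mediated decay, Exosc4 (0.19 ± 0.07) and Exosc6 (0.27 ± 0.10). Without WT footprint library 1 there were 2 called members (Exosc4 and Exosc6, where 8.34% of all genes were called), and without WT footprint library 2 there was 1 (Xrn1, where 1.82% were). For the Cpeb1 main effect edgeR called 0 of 63 members, where 0.167% of all genes were called, and DESeq2 called 0. Each tool took 3 at an unadjusted p under 0.05, 4.76% of members beside 7.6% of all genes by edgeR (3.91% lower). With edgeR these were Cnot6l (-0.25 ± 0.09), Cnot2 (-0.15 ± 0.06) and Cnot4 (-0.16 ± 0.07). On the higher side the lowest p values were those of Lsm11 (0.15 ± 0.08), Exosc6 (0.19 ± 0.10) and Exosc3 (0.14 ± 0.11).

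The Lsm genes were higher in RNA in 11 of 13 in the Fmr1 KO and in 11 of 13 in the Cpeb1 KO, with medians of 0.14 and 0.21 (log2), and in 8 of 13 in the double KO, with a median of 0.02. None was called by edgeR in any of the 3, and those with an unadjusted p under 0.05 numbered 0, 2 and 0. Most Lsm genes are short: 9 of the 11 members in the shortest 10% of tested genes are Lsm genes, though Lsm11, Lsm14a and Lsm14b are longer. RNA changes in the single KOs moved with coding length across all genes. In the shortest 10% of all tested genes the median change was 0.17 in the Fmr1 KO and 0.16 in the Cpeb1 KO, and the 11 members among them had medians of 0.14 and 0.21. In the longest 10% it was -0.11 and -0.09, and the 7 members there had -0.09 and -0.12.

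Over the 63 members the Spearman rho of RNA change with coding length was -0.417 in the Fmr1 KO, -0.469 in the Cpeb1 KO and -0.073 in the double KO, and over all tested genes it was -0.291, -0.256 and -0.011. These are descriptions over genes that share libraries. Of the 32 members with a coding length up to 1386 nt, 22 were higher in the Fmr1 KO and 23 in the Cpeb1 KO, and of the 31 longer ones 9 and 10 were. Over all genes split at that length, 64.7% and 62.7% of the shorter and 44.4% and 45.4% of the longer were higher. In footprints the members' rho against WT was 0.101, 0.109 and -0.022.

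**Figure D4:**
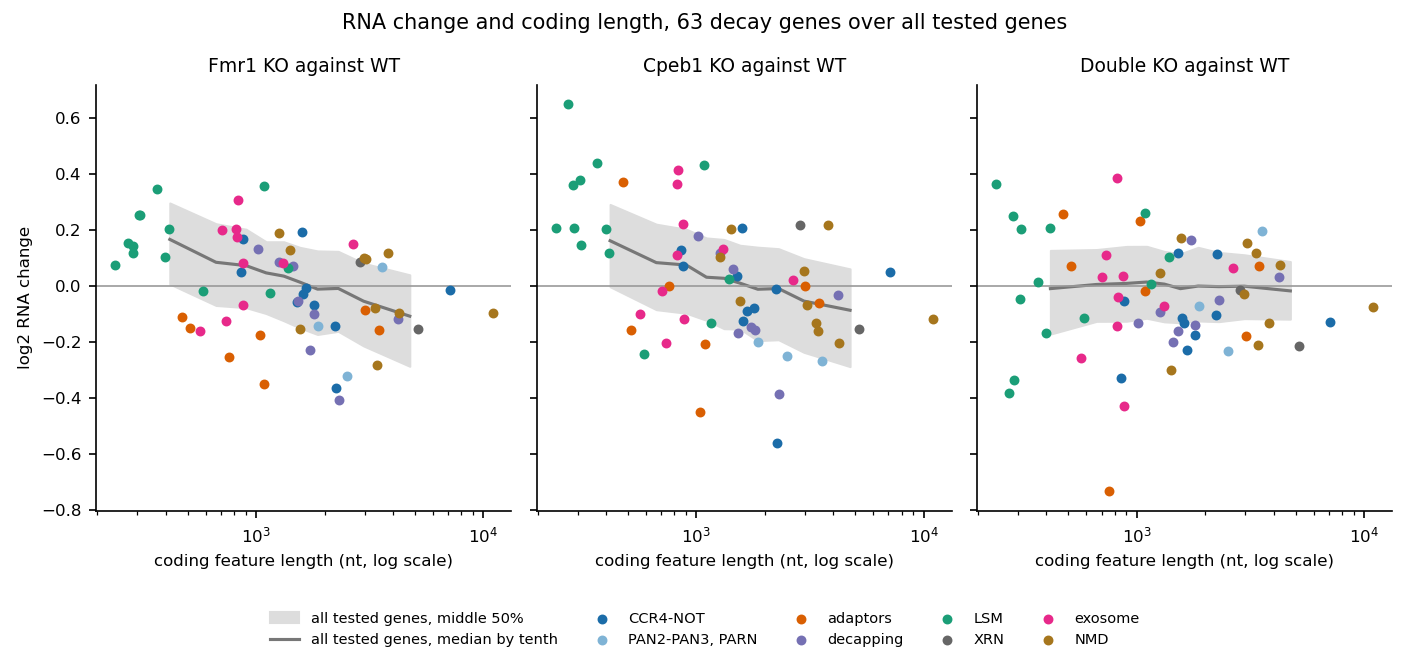
Log2 RNA change against WT of the 63 members by coding feature length (log axis) for the Fmr1, Cpeb1 and double KO, coloured by role; the grey line and band are the median and middle 50% of all tested genes in 10 bins of length. Short members, mostly LSM, lie above 0 in both single KOs along with all genes of that length, and the grey line is nearly flat in the double KO.

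With both single KOs set against WT and the double KO (4 RNA libraries against 4), 1 of 63 members changed. This was Cnot3 (NCBI gene 232791, chromosome 7, 3645247 to 3661109 on GRCm38), where 7.31% of all genes were called. Cnot3 RNA was 12.7 and 13.8 CPM per kb in WT, 10.5 and 9.89 in the Fmr1 KO, 6.69 and 11.6 in the Cpeb1 KO and 14.7 and 13.8 in the double KO. The 4 single KO libraries lay below the other 4 and did not overlap them. Counts behind these values ran from 132 to 285 per library. Cnot3 fell by 0.52 ± 0.13 (log2, SE), with an edgeR adjusted p of 0.0331. The 1 called member is 1.59% of 63, below the share of all genes. Without the replicate number as a block the adjusted p was 0.0585, and with the same contrast in the fit of 4 genotypes, a setting added after seeing the data, it was 0.0728. Leaving out WT library 1, Fmr1 KO library 1 or 2, Cpeb1 KO library 1 or double KO library 1 gave edgeR adjusted p of 0.0762, 0.0536, 0.0767, 0.119 and 0.120, and without Cpeb1 KO library 1 the change was -0.37.

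Cnot3 footprints were 19.0 and 19.8 CPM per kb in WT, 23.9 and 18.7 in the Fmr1 KO, 20.9 and 19.0 in the Cpeb1 KO and 21.1 and 20.2 in the double KO, and the groups overlapped. Of the 63 members, 4 had RNA levels that did not overlap between the 4 and 4 libraries. Cnot3 was the lower of these, where 6.11% of all genes were, and Cnot2, Dcp2 and Ddx6 were higher in the single KOs, where 6.04% were. Cnot2 RNA, the partner of Cnot3 in the NOT module, was 38.1 and 37.1 in WT, 45.1 and 40.8 in the Fmr1 KO, 44.6 and 42.1 in the Cpeb1 KO and 34.2 and 35.2 in the double KO. Its 4 single KO libraries lay above the other 4, the opposite of Cnot3. Its pooled change was 0.26 ± 0.08 (log2, SE), with an edgeR adjusted p of 0.0645. The others with the lowest p were Exosc8 (0.38 ± 0.12), Upf2 (0.23 ± 0.08), Patl1 (-0.37 ± 0.13) and Tob1 (-0.27 ± 0.11). Unadjusted, 15 members had p under 0.05 (10 higher and 5 lower), beside 25.7% of all genes (13% higher and 12.7% lower). With the trend on coding length removed, 4 were called (Cnot2, Cnot3, Exosc4 and Upf2), 6.35% of members where 10.5% of all genes were called. Astrocyte markers were lowest in WT RNA. Their sum over 5 markers, none of them at 0, was 433 and 370.7 CPM in the WT RNA libraries. It was 470.5 and 467.7 CPM in the double KO, close below the 473.9 to 532.9 CPM of the single KOs. In footprints the sums overlapped, at 521.2 to 592.3 CPM in the single KOs and 485.6 to 615.7 CPM in the other 4. The part of these markers in the Cnot3 result was not tested.

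**Figure D5:**
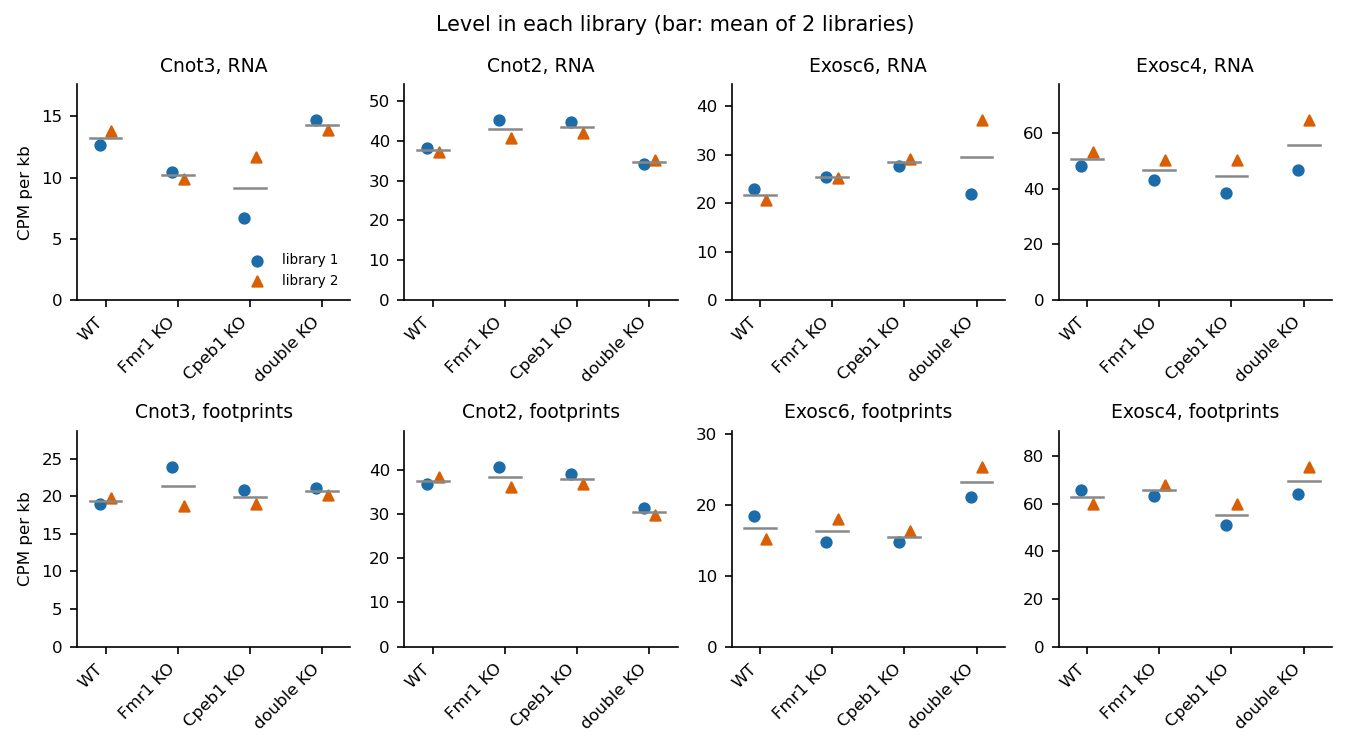
Level in CPM per kb of Cnot3, Cnot2, Exosc6 and Exosc4 in each RNA library (upper row) and footprint library (lower row), with library 1 as circles, library 2 as triangles and bars for the mean of 2. Cnot3 RNA is lower in the 4 single KO libraries (6.69 to 11.6) than in the other 4 (12.7 to 14.7), and Exosc6 footprints are highest in the double KO (21.1 and 25.3).

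In footprints the same pooling called 0 of 63 members and 0% of all genes with edgeR, and 0 members with DESeq2. Without adjustment edgeR took 3 at p under 0.05 and DESeq2 2, beside 6.95% of all genes by edgeR. Those with the lowest p were Dcp2, Cnot10 (0.13 ± 0.07) and Cnot2 (0.17 ± 0.09), and Tob2 (-0.23 ± 0.09), Exosc6 (-0.32 ± 0.14) and Smg9 (-0.13 ± 0.08). Dcp2 had the 1 footprint difference without overlap, higher in the single KOs at 17.6 to 18.5 CPM per kb against 15.0 to 16.5, where 1.92% of all genes were. None was lower without overlap, where 1.15% of all genes were. Dcp2 RNA was likewise 44.7 to 47.2 against 39.2 to 44.1. The footprint change of Dcp2 was 0.19 ± 0.07 (log2, SE), with an edgeR adjusted p of 0.711.

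Loss of Fmr1 on top of loss of Cpeb1 changed 1 member in footprints. Set against the Cpeb1 KO, the double KO differed in Exosc6 (NCBI gene 72544, chromosome 8, 111056339 to 111057664 on GRCm38), a subunit of the exosome ring, where 5.6% of all genes were called. Exosc6 footprints were 18.3 and 15.1 CPM per kb in WT, 14.8 and 17.9 in the Fmr1 KO, 14.8 and 16.2 in the Cpeb1 KO and 21.1 and 25.3 in the double KO. Both double KO libraries lay above the other 6, and the share of all genes for which they do was not computed. Exosc6 rose by 0.58 ± 0.15 (log2, SE), with an edgeR adjusted p of 0.0391. Counts behind the values were 267 and 306 in the Cpeb1 KO and 348 and 311 in the double KO. The 1 called member is 1.59% of 63, below the 5.6% of all genes. Its RNA was 22.8 and 20.7 in WT, 25.4 and 25.3 in the Fmr1 KO, 27.7 and 29.2 in the Cpeb1 KO and 21.9 and 37.1 in the double KO, where the 2 libraries stood on either side of those of the Cpeb1 KO. Without the replicate block the footprint adjusted p was 0.0643. Leaving out either library of the Cpeb1 KO (0.365 and 0.186) or of the double KO (0.0953 and 0.257) ended the edgeR call. Glial markers moved with this contrast in footprints. The microglia sum over 5 markers, none of them at 0, was 35.2 and 35.0 CPM in the Cpeb1 KO and 18.3 and 25.6 CPM in the double KO. The astrocyte sum was 545.5 and 592.3 against 485.6 and 501.5 CPM. The oligodendrocyte sum was 3804 and 3213 against 3104 and 2767 CPM. Sums of the other marker sets, neurons among them, overlapped. The part of these markers in the result was not tested.

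Of the other exosome subunits in this comparison, Exosc4 footprints were 50.9 and 59.9 CPM per kb in the Cpeb1 KO and 63.9 and 75.4 in the double KO, a difference of 0.33 ± 0.10 (log2, SE) with an edgeR adjusted p of 0.0801. The 10 exosome genes had a median of 0.15, with 7 higher, against -0.01 over all genes. Lower members were led by Cnot2 (-0.32 ± 0.09), Ddx6 (-0.25 ± 0.07) and Pum2 (-0.26 ± 0.08), with edgeR adjusted p of 0.0552, 0.0608 and 0.068. Ddx6 footprints were 250.4 and 237 in the Cpeb1 KO and 201 and 207 in the double KO. DESeq2 called Ddx6 and Exosc6, where it called 6.03% of all genes. On the libraries of these 2 genotypes alone edgeR called 5 (Cnot2, Ddx6, Exosc4, Exosc6 and Xrn1), 7.94% of members where 12.5% of all genes were called. Smg6 was also on the higher side (0.25 ± 0.09). In all 16 members had an unadjusted p under 0.05 (7 higher and 9 lower), against 24.6% of all genes (12.1% higher and 12.5% lower).

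For RNA of the double KO against the Cpeb1 KO, edgeR called 0 of 63 members (0.00753% of all genes) and DESeq2 0. Unadjusted p values under 0.05 numbered 11 with edgeR (3 higher and 8 lower) and 5 with DESeq2, against 19.2% of all genes by edgeR (9.78% and 9.41%). The lowest p values belonged to Cnot3 (0.68 ± 0.20), Tob2 (0.68 ± 0.26) and Exosc4 (0.32 ± 0.14), and to Lsm5 (-1.03 ± 0.27), Cnot7 (-0.46 ± 0.12) and Upf2 (-0.35 ± 0.11). Cnot7 RNA was 106 and 94.95 CPM per kb in the Cpeb1 KO, 93.4 and 97.0 in the Fmr1 KO, 86.9 and 97.5 in WT and 75.9 and 70.4 in the double KO. Against the Fmr1 KO, which differs from the double KO in Cpeb1, edgeR called 0 of 63 members in RNA (0% of all genes) and 0 in footprints (0.334%), and DESeq2 called 0 in both. With edgeR 7 and 7 had an unadjusted p under 0.05, against 15.7% and 15.9% of all genes, and with DESeq2 2 and 3. In RNA and in footprints alike these were 1 higher and 6 lower, against 7.69% and 8.02% of all genes in RNA and 7.6% and 8.25% in footprints. Those with the lowest p in RNA were Cnot3 (0.48 ± 0.20), Tob1 (0.33 ± 0.16) and Dcp1b (0.40 ± 0.19), and Cnot7 (-0.38 ± 0.12), Cnot2 (-0.31 ± 0.12) and Ddx6 (-0.27 ± 0.11). In footprints they were Exosc6 (0.50 ± 0.15), Smg9 (0.21 ± 0.10) and Tob2 (0.26 ± 0.13), and Cnot2 (-0.33 ± 0.09), Cnot4 (-0.31 ± 0.10) and Cnot7 (-0.27 ± 0.11). Cnot2 footprints were 40.7 and 36.1 in the Fmr1 KO and 31.4 and 29.7 in the double KO. The comparisons of the double KO share its libraries.

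Whether the effect of losing Fmr1 depends on Cpeb1 was tested as an interaction. It is the pooled contrast in the fit of 4 genotypes, with its sign reversed and its scale doubled. Members with low p in both are therefore not found by separate tests. In RNA edgeR called 0 of 63 members, where 2.06% of all genes were called, and DESeq2 called 0. Of these, 13 (5 higher and 8 lower) had an unadjusted p under 0.05 with edgeR, against 23.4% of all genes (11.6% and 11.8%), and 4 with DESeq2. Cnot3 came nearest, at 1.04 ± 0.29 (log2, SE, edgeR adjusted p = 0.0728), with Patl1 (0.74 ± 0.29) and Tob2 (0.86 ± 0.36) on the same side and Lsm5 (-1.19 ± 0.38), Cnot2 (-0.51 ± 0.17) and Upf2 (-0.47 ± 0.15) on the other. For footprints edgeR and DESeq2 called 0 of 63 members, where edgeR called 0.0653% of all genes, and 5 (2 higher and 3 lower) and 2 had an unadjusted p under 0.05, against 12.6% by edgeR. The lowest p values were those of Exosc6 (0.62 ± 0.21), Tob2 (0.47 ± 0.18) and Exosc4 (0.27 ± 0.15), and of Cnot2 (-0.35 ± 0.13), Dcp2 (-0.38 ± 0.15) and Cnot4 (-0.31 ± 0.13).

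Translational efficiency, how far footprints moved beyond RNA, was tested as an interaction of assay and genotype over 16 libraries. edgeR called 0 of 63 members in the Fmr1, Cpeb1 and double KO against WT. Over all genes 0.0154%, 0% and 0.00768% were called, and DESeq2 called 0 members in each. Cpeb1 itself had -1.09 ± 0.21 (log2, SE) in the Cpeb1 KO and was not called (edgeR adjusted p = 0.344). At an unadjusted p under 0.05 edgeR took 3, 3 and 1 members, against 7.8%, 9.5% and 3.52% of all genes, and DESeq2 took 0, 1 and 0. Cnot3 had 0.49 ± 0.23 in the Fmr1 KO and 0.60 ± 0.23 in the Cpeb1 KO (log2, SE), with edgeR adjusted p of 0.643 and 0.493. Patl1 had 0.60 ± 0.26 and 0.45 ± 0.27. On the lower side Exosc8 had -0.60 ± 0.21 and -0.50 ± 0.21 and Lsm5 had -0.80 ± 0.28 in the Cpeb1 KO. Pan3 (0.36 ± 0.17), Lsm8 (-0.38 ± 0.18) and Upf2 (-0.25 ± 0.14) followed in the Fmr1 KO, and Pan2 (0.48 ± 0.29) and Upf2 (-0.26 ± 0.14) in the Cpeb1 KO. For the double KO the lowest p values were those of Exosc2 (0.48 ± 0.21), Pan3 (0.32 ± 0.17) and Edc3 (0.30 ± 0.18), and of Btg1 (-0.36 ± 0.22), Dcp1b (-0.36 ± 0.23) and Lsm6 (-0.39 ± 0.26). The Lsm genes were lower in 10 of 13 in the Fmr1 KO and in 10 of 13 in the Cpeb1 KO. Their medians were -0.19 and -0.23 against -0.02 and -0.02 over all genes, and 6 of 13 were lower in the double KO. Most Lsm genes are short, and RNA of the shortest 10% of all genes had medians of 0.17 and 0.16 in the single KOs. Footprint changes of all genes had a rho with coding length of only -0.034 and 0.048. A baseline of efficiency for short genes was not computed, and the part of length was not tested.

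A list of 76 genes associated with the decay machinery, drawn up with earlier results of these data known, was read beside the members. In the pooled RNA contrast edgeR called 10 of the 72 tested, 3 higher and 7 lower, against 7.31% of all genes. The higher ones were Etf1, the translation release factor (0.34 ± 0.09, log2, SE), Paip2, an inhibitor of poly(A)-binding protein (0.40 ± 0.10), and Skiv2l2, the helicase that feeds the nuclear exosome (0.28 ± 0.07). Lower were Zfp36l2, which brings CCR4-NOT to AU-rich elements (-0.75 ± 0.22), Tnrc6c, which links Argonaute to CCR4-NOT (-0.42 ± 0.11), Khsrp, another AU-rich element binder (-0.35 ± 0.10), Samd4b (-0.45 ± 0.10), Mex3d (-0.42 ± 0.12), Angel1 (-0.52 ± 0.13) and Gigyf1 (-0.50 ± 0.14). The count of 10 of 72 is not read as an excess, because earlier results were known when the list was drawn up. CPM of Zfp36l2, Tnrc6c, Samd4b and Gigyf1 overlapped between the 4 and 4 RNA libraries. The other called genes did not overlap, where 6.04% of all genes were higher and 6.11% lower without overlap. How these calls hold in the alternative fits is not given here. In the footprints of the double KO against the Cpeb1 KO 1 of 73 was called, Gigyf1, higher by 0.54 ± 0.13. Against WT none was called in RNA or footprints by edgeR, and 7, 8 and 4 in RNA and 3, 1 and 12 in footprints had an unadjusted p under 0.05 in the Fmr1, Cpeb1 and double KO, against 8.09%, 11% and 4.23% of all genes in RNA and 5.09%, 3.88% and 21% in footprints.

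The authors' deposited tables of their own tests list 63 members. For RNA, the authors' deposited table of the pooled contrast calls Cnot2 higher and Cnot3 lower (13.6% of genes given an adjusted p are called), and that of the double KO against the Cpeb1 KO calls Cnot7 lower (5.9%). For footprints, the authors' deposited tables call Xrn1 lower in the double KO against WT (8.26% of genes), Exosc4 and Exosc6 higher and Cnot2, Ddx6 and Pum2 lower in the double against the Cpeb1 KO (13.5%), and Cnot2 lower in the double against the Fmr1 KO (4.39%). In the authors' deposited tables of both single KOs against WT, and of translational efficiency against WT, 0 members are called, and an adjusted p is given for 25 to 63 members.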

How the data were processed

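The authors deposited, per the file headers, expected counts per gene and library as RSEM estimates them. Per the submitters' processing notes, cutadapt, Bowtie2, TopHat2, RSEM and DESeq2 were used, with the mm10 build; their versions and settings are not given in the sources used here. Whole-number deposited lengths of members are multiples of 3, those of coding sequence; for 52 members the footprint length is 57 nt less. The authors also deposited tables of log2 changes and p-values per gene from DESeq2 and Xtail, per the series' design text; these were quoted only. Expected counts were rounded and tested with edgeR 4.0.16 in R 4.3.3 (quasi-likelihood, TMM, filterByExpr with a minimum count of 10, replicate number as a block, all 4 genotypes in a fit), with Benjamini-Hochberg adjustment over all genes and calls at 0.05. The pooled contrast used a fit of 2 groups of 4. Translational efficiency was the assay by genotype term over 16 libraries, among 13027 genes. Alternatives were DESeq2 1.42.0, upper-quartile scaling, no filter, no block, fits of 2 genotypes, removal of a length trend, and each library left out. The edgeR fits were tested on simulated data. Levels are TMM-scaled CPM per kb of deposited feature length.

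The members and gene lists were chosen with earlier results of these data known. Genes named are the targeted genes, members and associated genes called, the 3 lowest p values per direction and comparison, the 2 highest and the lowest in RNA per role, and paralog pairs; others (such as Smg9, Lsm2 and Upf1) illustrate the ratio. Gene positions are from RefSeq (GRCm38.p6). Paralog tests used scipy 1.17.1. Some genes that this rule names, with their results, are not reported here.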

Additional observations from a re-analysis of the deposited data

How the results depend on the processing

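Without the replicate number as a block, the member counts were 0 in the pooled RNA contrast and 0 in footprints of the double against the Cpeb1 KO, and no other count of called members changed. Deviations of same-numbered libraries correlated by -0.0446 to 0.293 between genotypes in RNA and by -0.0748 to 0.334 in footprints, so the numbers are not shown to pair the libraries. With DESeq2 the counts were 2 (Ddx6 and Exosc6) in footprints of the double against the Cpeb1 KO and 1 (Xrn1) for the Fmr1 main effect. With only the 2 genotypes compared they were 5 and, against the Fmr1 KO, 3 (Cnot2, Cnot4 and Exosc6), where 12.5% and 5.66% of all genes were called. With the length trend removed they were 4 in the pooled RNA contrast, 1 (Upf2) in RNA of the double against the Cpeb1 KO and 2 (Cnot3 and Upf2) for the RNA interaction of both losses, where the full fit called 0 and no filter gave 1 (Cnot3). The pooled RNA contrast in the fit of 4 genotypes, added after seeing the data, gave 0. Leaving out each library in turn gave 0 to 4 members in the pooled RNA contrast, 0 to 1 in RNA of the Cpeb1 KO against WT and of the double against the Cpeb1 KO (Cnot3, without Cpeb1 KO library 2), and 0 to 3 for the RNA interaction. In footprints it gave 0 to 0 for the double against the Cpeb1 KO, 0 to 6 for the double KO against WT, 0 to 2 for the Fmr1 main effect and 0 to 1 for the interaction. The cause of these shifts was not tested. The 42 alternatives of translational efficiency gave 0 called members. Of 222 alternatives of the 19 counts, 190 stayed within 1.5 times the count. Most of the 19 counts are 0, so this number mainly records counts that stayed at 0. It does not measure how steady the counts of 1 were, which moved as given above. Effective in place of feature length, added after seeing the data, changed no sign or call among the 24 paralog differences. There were 2 libraries per group, and the median standard error of a member in RNA was 0.164 (log2, Fmr1 KO against WT). Small changes of single members are thus beyond these data. In RNA even the Cpeb1 change of -1.12 (log2) in the Cpeb1 KO was not called (edgeR adjusted p = 0.225).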
